A study of Mus musculus with 4 samples.

Results

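Expression of 10 genes of the NOTCH pathway was examined in mouse lungs carrying triple-negative breast cancer (TNBC) metastases. The genes were picked by symbol as the receptors Notch1, Notch2, Notch3 and Notch4, the ligands Jag1, Jag2, Dll1 and Dll4, and the target genes Hes1 and Hey1. Each symbol matched 1 of the 56748 genes counted, and all 10 passed the expression filter, which kept 15320 genes. Bulk RNA sequencing compared 2 saline samples with 2 ADC/cmLumiOpto samples to find which signaling pathways differed after the combined treatment. In both groups, female BALB/cJ mice aged 7 weeks had been injected in the tail vein with 2000000 cells of 4T1-FLuc, a single luciferase-carrying line of mouse TNBC. The treated mice received both agents, and no sample of either agent alone was analyzed here. The antibody-drug conjugate (ADC) couples an antibody against the surface protein CD276 to the microtubule poison DM1. The gene therapy cmLumiOpto is a vector for a light-gated channel that depolarizes mitochondria and is lit from within by the luminescent substrate ViviRen. The labels give an ADC dose of 16 mg/kg and differ among themselves, as the sample titles name saline and cmLumi-ADC. Other labels name the gene therapy cmLumi-Olap, call the control PBS and speak of tumor cells harvested after 3 weeks. The methods give 8 mg/kg of ADC with 2 mg/kg of ViviRen, saline, and whole dissociated lung tissue in 4 samples per group.

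NOTCH receptors are single-pass membrane proteins that are activated by ligands of the Jagged and Delta-like families on a neighboring cell. Binding lets ADAM proteases and then γ-secretase cut the receptor, and the freed intracellular domain joins the DNA-binding protein RBPJ and a Mastermind coactivator to switch on genes of the HES and HEY families. In lung, Notch4, Dll4 and Hey1 are known from endothelium, Notch3 from the mural cells around vessels, and Jag1, Jag2, Notch1 and Notch2 from airway epithelium, where the pathway sets the balance of secretory and ciliated cells. Such signaling has also been widely studied in breast cancer cells.

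Each sample had 15263375 to 19675436 counts in total, and a count of 3, taken as the floor, corresponds to at most 0.202 CPM (counts relative to the TMM-scaled library size), for counting error only. The samples held RNA of several cell types. The epithelial keratin gene Krt8, which 4T1 cells express, had between 18245 and 22916 counts in every sample. The alveolar surfactant gene Sftpc had 16263 and 2585 counts with saline and 76235 and 70262 with ADC/cmLumiOpto. Summed over a list of 5 airway markers, saline replicate 1 had 1149 CPM and saline replicate 2 had 80.3 CPM, whereas the treated samples had 6199 and 2954 CPM. The saline samples thus differed from each other in the amount of lung epithelial RNA, and both lay below the treated samples. In such bulk samples, fewer cells of a type and less RNA per cell cannot be told apart.

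The 10 genes spanned a wide range of expression, which was compared between genes as CPM per kilobase of gene length (RPKM). In the saline samples Notch2 had the highest level, 22.9 ± 0.0532 RPKM (SD, n = 2), followed by Hes1 at 19.96 ± 1.53 RPKM (SD, n = 2) and Jag1 at 7.97 ± 1.90 RPKM (SD, n = 2). The sample ranges of these 3 genes did not overlap each other or those of the genes below them. Dll1, Dll4, Notch1 and Notch4 followed with means from 4.19 down to 2.50 RPKM, and each overlapped the next. Notch3, at 1.86 ± 0.303 RPKM (SD, n = 2), lay just below Notch4 and above Jag2, without overlap. Jag2 and Hey1 were lowest, at 1.27 ± 0.183 and 1.17 ± 0.626 RPKM (SD, n = 2 each), and overlapped each other. In the ADC/cmLumiOpto samples the order at the top was Hes1 at 18.7 ± 0.676 RPKM (SD, n = 2), Notch2 at 14.9 ± 2.47 RPKM (SD, n = 2) and Jag1 at 9.69 ± 1.19 RPKM (SD, n = 2), again without overlap. Dll4 came next at 4.46 ± 0.162 RPKM (SD, n = 2), and Hey1 stood in the fifth place instead of the lowest, at 3.74 ± 0.181 RPKM (SD, n = 2). From Hey1 down through Dll1, Notch1, Notch4, Jag2 and Notch3, each gene overlapped the next.

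With edgeR's quasi-likelihood test and Benjamini-Hochberg adjustment, 0 of the 10 genes had an adjusted p under 0.05, as did 0% of all 15320 genes tested, where no adjusted p was below 0.116. Taking an unadjusted p under 0.05 instead, 1 member was lower in the ADC/cmLumiOpto samples (Notch2) and 2 were higher (Hey1 and Jag2). Among all tested genes the corresponding shares were 12.2% lower and 11.0% higher. For 1 member (Notch2) the values of both treated samples were below those of both saline samples, and for 3 (Hey1, Jag2 and Dll4) they were above them, against 28.8% and 28.1% of all tested genes. The median log2 fold change of the members was 0.18, beside 0.028 for all tested genes. The count of members at an unadjusted p under 0.05 was thus near the background, and the members' log2 fold changes had both signs, with 6 positive and 4 negative. With 2 samples against 2, an exact permutation test of a single gene cannot give a two-sided p below 0.333.

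**Figure D1:**
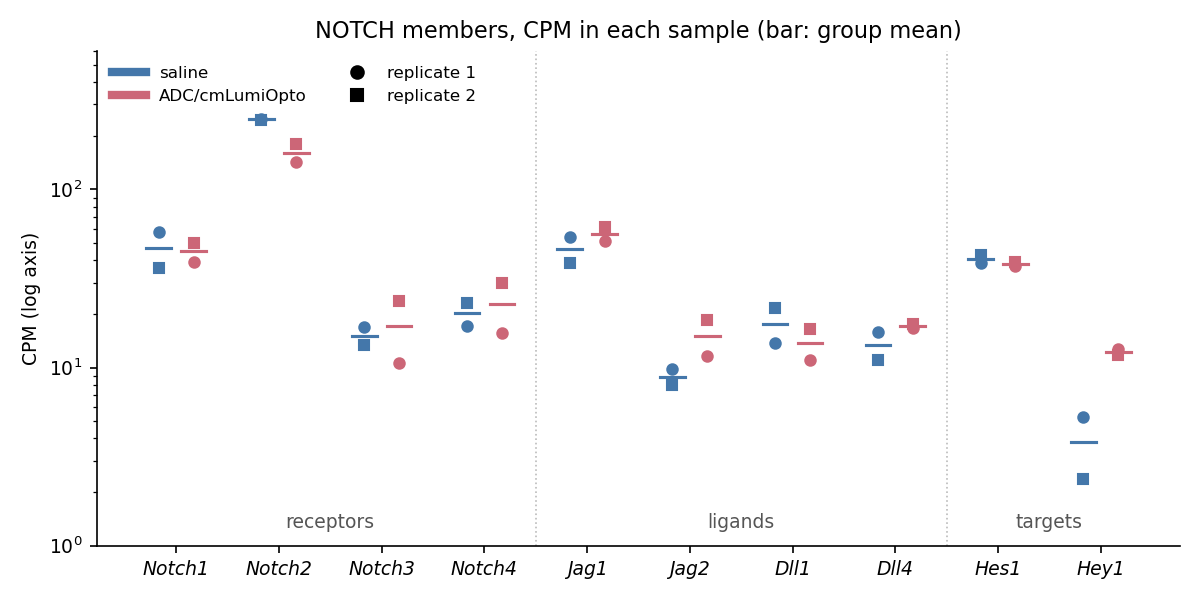
CPM of each member (log axis) in the 2 saline samples (blue) and the 2 ADC/cmLumiOpto samples (red), with circles for replicate 1, squares for replicate 2 and bars for group means. Notch2 lies lower and Hey1, Jag2 and Dll4 lie higher in both treated samples than in both saline samples, whereas the groups of the other 6 genes overlap.

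Among the receptors, Notch2 was the most abundant and the only one whose groups did not overlap. Notch2 (ENSMUSG00000027878), which has roles in bile ducts, B cells and airway secretory cells, had 3957 and 3658 counts with saline and 2504 and 3683 with ADC/cmLumiOpto. On the CPM scale, which takes into account that the last library was the deepest, the samples were at 247 and 247 (saline) and at 142 and 180 (ADC/cmLumiOpto). The log2 fold change was -0.62 (standard error, SE, 0.18), that is 0.651-fold, with an adjusted p of 0.134 in edgeR. With single samples left out it lay between -0.80 and -0.46, and without either saline sample it was no longer under an unadjusted p of 0.05. Notch1 (ENSMUSG00000026923), known for T cell development and as an oncogene in T cell leukemia, was at 58.0 and 36.3 CPM in the saline samples and 39.3 and 50.3 CPM in the treated samples. The groups overlapped fully, and the log2 fold change was -0.074 (SE 0.26, edgeR adjusted p = 0.892). Notch3 (ENSMUSG00000038146), the receptor of vascular smooth muscle cells and pericytes, was at 16.8 and 13.3 CPM against 10.6 and 23.7 CPM. The lowest and the highest value were both in the ADC/cmLumiOpto group, with a log2 fold change of 0.19 (SE 0.39, edgeR adjusted p = 0.806). Notch4 (ENSMUSG00000015468), which is largely endothelial, showed the same arrangement, with 17.2 and 23.1 CPM in the saline samples and 15.7 and 29.7 CPM in the treated samples. Its log2 fold change was 0.17 (SE 0.34, edgeR adjusted p = 0.787). For both Notch3 and Notch4 the direction turned when ADC/cmLumiOpto replicate 2 was left out, with log2 fold changes of -0.51 and -0.36.

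The 4 ligand genes were lower than the main receptor, and only Jag2 came under an unadjusted p of 0.05. Jag2 (ENSMUSG00000002799), a Jagged ligand expressed in basal and other epithelial cells, had 156 and 118 counts with saline and 205 and 378 with ADC/cmLumiOpto. These corresponded to 9.75 and 7.95 CPM and to 11.6 and 18.4 CPM, so that both treated samples were higher and the second of them most of all. The log2 fold change was 0.76 (SE 0.32), a 1.70-fold difference with an adjusted p of 0.214 in edgeR, and it was 0.39 without ADC/cmLumiOpto replicate 2. The unadjusted p stayed under 0.05 without ADC/cmLumiOpto replicate 1 and not without any of the other 3 samples. Jag1 (ENSMUSG00000027276), a ligand of endothelial, smooth muscle and epithelial cells that is mutated in Alagille syndrome, was at 54.3 and 38.6 CPM in the saline samples and 51.6 and 61.3 CPM in the treated samples. The groups overlapped, with a log2 fold change of 0.28 (SE 0.22, edgeR adjusted p = 0.463). Dll4 (ENSMUSG00000027314), the ligand of endothelial tip cells and arteries, was at 15.8 and 11.0 CPM against 16.7 and 17.6 CPM. Both treated samples were above both saline samples, by a margin smaller than the gap between the saline samples, and the log2 fold change was 0.36 (SE 0.26, edgeR adjusted p = 0.447). Dll1 (ENSMUSG00000014773) was the only ligand with a negative log2 fold change, -0.36 (SE 0.32, edgeR adjusted p = 0.530). Its levels of 13.8 and 21.6 CPM in the saline samples and 11.1 and 16.4 CPM in the treated samples overlapped, and the value was -0.0010 without saline replicate 2.

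The target genes differed from each other. Hey1 (ENSMUSG00000040289), which encodes a repressor that acts downstream of NOTCH in arterial endothelium and in other tissues, had 84 and 35 counts with saline and 223 and 242 with ADC/cmLumiOpto. On the CPM scale it was at 5.25 and 2.36 in the saline samples and at 12.6 and 11.8 in the treated samples, so the treated samples lay close together and well above the saline ones. The log2 fold change of 1.68 (SE 0.42), or 3.20-fold, had the smallest p of the 10 genes, with an adjusted p of 0.123 in edgeR. Hes1 (ENSMUSG00000022528), a repressor that keeps progenitor cells undifferentiated and that also responds to signals other than NOTCH, was at 38.4 and 42.9 CPM in the saline samples and 37.1 and 39.0 CPM in the treated samples. Its groups overlapped, with a log2 fold change of -0.096 and the smallest standard error of the members, 0.16 (adjusted p = 0.756 in edgeR). The 9 other genes that overlap a member in the annotation had at most 7 counts in any sample.

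The call for Hey1 and Notch2 depended on the test. In DESeq2, Hey1 (adjusted p = 0.00849) was among the 3.78% of genes called higher and Notch2 (adjusted p = 0.0362) among the 5.05% called lower. The edgeR exact test called Hey1 (adjusted p = 0.0141) with 3.96% of all genes higher, and did not call Notch2 (adjusted p = 0.0862). Without the expression filter, the quasi-likelihood test called both Hey1 (adjusted p = 2.86e-04) and Notch2 (adjusted p = 0.0292), when 4.79% of 25563 genes were called higher and 4.05% lower. Leaving out saline replicate 1 raised the log2 fold change of Hey1 to 2.36 (adjusted p = 0.0443 in edgeR), with 1.01% of genes called higher, and leaving out saline replicate 2 lowered it to 1.22 (adjusted p = 0.390 in edgeR). Over all alternatives, the adjusted p of Hey1 ranged from 2.86e-04 to 0.390 and that of Notch2 from 0.0292 to 0.503, and both kept their direction in each of 12.

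The position of each gene is given as listed with the counts, for which the submitters' processing notes name the build mm39, whereas the methods name GRCm38. The receptors lay at chr2:26347915-26406675 (Notch1, minus strand), chr3:97920843-98057677 (Notch2, plus strand), chr17:32339794-32385826 (Notch3, minus strand) and chr17:34783242-34807477 (Notch4, plus strand). The ligands lay at chr2:136923376-136958564 (Jag1, minus strand), chr12:112871439-112893396 (Jag2, minus strand), chr17:15587616-15597134 (Dll1, minus strand) and chr2:119156265-119166443 (Dll4, plus strand). Hes1 lay at chr16:29883202-29886614 (plus strand) and Hey1 at chr3:8728419-8732316 (minus strand). All are protein-coding genes. Chromosomes 2 and 17 thus hold 6 of the 10 genes, at separate loci.

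Promoters of 8 members were found in the RefSeq table of build GRCm38.p6, 9 in all, and Hes1 and Hey1 had no entry. The 250 bases before the start were searched on both strands for GTGGGAA, a core to which RBPJ binds and the only motif searched. It occurred in 0 of these 9 promoters and in 5.42% of 32851 promoters in the table. The members' promoters were rich in G and C, from 56.0% to 87.2% beside a median of 52.4%. Those of Notch2 and Jag2, the members with an entry that came under an unadjusted p of 0.05 in opposite directions, are shown with the promoter of the mainly endothelial Notch4 for contrast. CpG sites are in capitals, and each is printed 5′ to 3′ along the strand of its gene (Notch2 at chr3:98013288-98013537, plus; Jag2 at chr12:112929496-112929745, minus; Notch4 at chr17:34564045-34564294, plus, all GRCm38.p6).
Notch2: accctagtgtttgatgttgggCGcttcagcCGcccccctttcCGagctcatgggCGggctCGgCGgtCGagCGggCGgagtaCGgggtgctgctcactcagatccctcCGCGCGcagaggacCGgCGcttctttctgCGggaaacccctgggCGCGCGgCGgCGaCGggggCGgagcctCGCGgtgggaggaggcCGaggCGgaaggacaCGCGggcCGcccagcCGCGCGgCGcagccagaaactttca
Jag2: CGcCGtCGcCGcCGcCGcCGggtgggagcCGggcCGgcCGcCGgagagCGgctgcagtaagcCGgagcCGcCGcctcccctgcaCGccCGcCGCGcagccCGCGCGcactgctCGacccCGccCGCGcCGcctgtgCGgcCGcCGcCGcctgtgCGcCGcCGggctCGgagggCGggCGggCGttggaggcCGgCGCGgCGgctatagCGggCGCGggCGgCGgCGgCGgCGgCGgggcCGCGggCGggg
Notch4: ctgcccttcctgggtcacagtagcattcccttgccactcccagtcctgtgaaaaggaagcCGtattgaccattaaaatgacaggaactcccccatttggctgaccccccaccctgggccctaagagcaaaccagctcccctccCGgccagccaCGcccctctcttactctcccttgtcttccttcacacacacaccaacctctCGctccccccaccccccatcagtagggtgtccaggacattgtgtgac
There were 34 CpG sites in the Notch2 window (ratio of observed to expected 1.06), 54 in the Jag2 window (1.14) and 4 in the Notch4 window (0.226), beside a median ratio of 0.373 over all promoters.

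The make-up of the receptor and ligand mRNA was compared within each sample, as shares of the summed reads per kilobase, which do not depend on the scaling between samples. Notch2 made up 73.5% and 76.4% of the receptor mRNA with saline and 68.6% and 62.1% with ADC/cmLumiOpto. The other receptors each took a larger share in both treated samples than in both saline samples. Notch1 had 13.0% and 8.53% against 14.4% and 13.2%, Notch3 had 6.66% and 5.51% against 6.83% and 10.9%, and Notch4 had 6.83% and 9.58% against 10.2% and 13.7%. The difference in the mean share of Notch2 was -9.55 percentage points. The shares in a sample are not independent, since a smaller share of Notch2 leaves larger shares for the others. On the CPM scale the groups of Notch1, Notch3 and Notch4 each overlapped. The summed level of the 4 receptors was 31.2 and 29.9 RPKM in the saline samples and 19.2 and 26.8 RPKM in the treated samples, without overlap.

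Among the ligands, Jag1 was the most abundant, with 51.5% and 42.1% with saline and 50.6% and 48.7% with ADC/cmLumiOpto. Dll1 took 18.03% and 32.5% with saline and 14.99% and 17.96% with ADC/cmLumiOpto, a difference of -8.79 points in the means that lay mostly in saline replicate 2. The share of Jag2 was 7.75% and 7.26% against 9.54% and 12.2%, higher in both treated samples. Dll4 overlapped, at 22.7% and 18.1% against 24.8% and 21.1%. The summed level of the 4 ligands overlapped as well, at 18.1 and 15.7 RPKM in the saline samples and 17.5 and 21.6 RPKM in the treated samples. These shares were not tested.

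**Figure D2:**
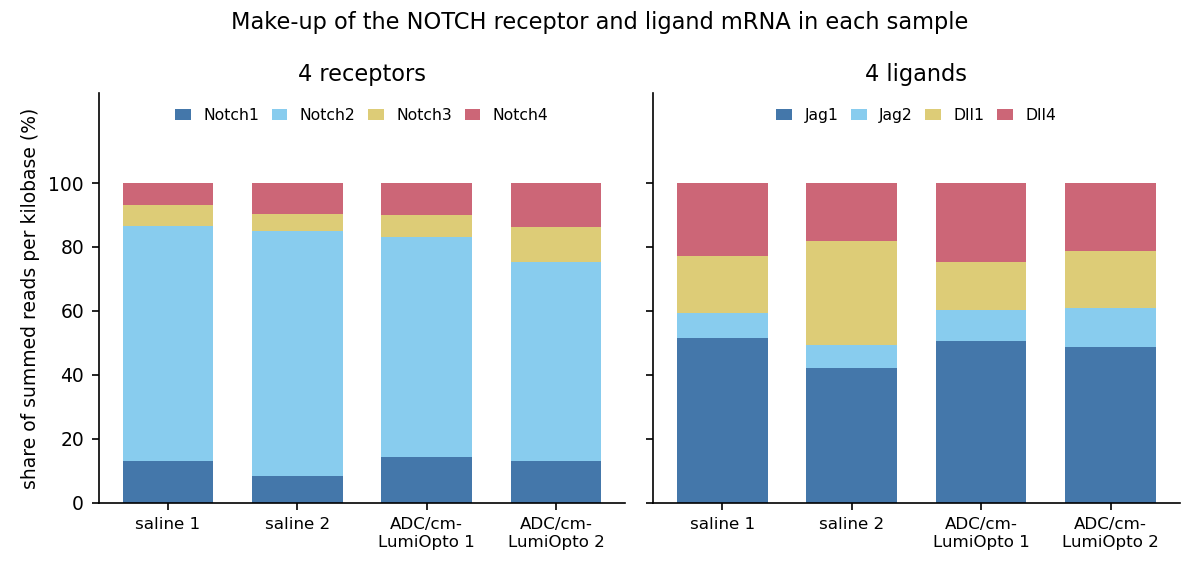
Stacked bars give the percentage of the summed reads per kilobase that each of the 4 receptors (left) and each of the 4 ligands (right) takes in the 2 saline and 2 ADC/cmLumiOpto samples. Notch2 makes up most of the receptor mRNA in every sample, from 62.1% to 76.4%, with a smaller share in both treated samples.

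The log2 fold changes of several members moved with a correction for gene length. Across all tested genes, longer genes had lower log2 fold changes (Spearman's rho -0.34 over genes, which are not independent replicates), and the receptor genes are long, from 8061 bases for Notch4 to 14232 bases for Notch1. Among the 1498 tested genes within 1.25-fold of the length of Notch2, the median log2 fold change was -0.26. After a smooth trend on length was removed, the log2 fold change of Notch2 was -0.35 (SE 0.15, edgeR adjusted p = 0.263) and no longer under an unadjusted p of 0.05. That of Notch1 went from -0.074 to 0.24, and Notch3 and Notch4 were at 0.37 and 0.36. Jag2 was at 0.91 (SE 0.29, edgeR adjusted p = 0.196). Hey1, a gene of 3265 bases, was little altered at 1.62 (SE 0.41, edgeR adjusted p = 0.157), and Hes1, the shortest at 2037 bases, went to -0.31. The part of gene length in the value of Notch2 was otherwise not tested.

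**Figure D3:**
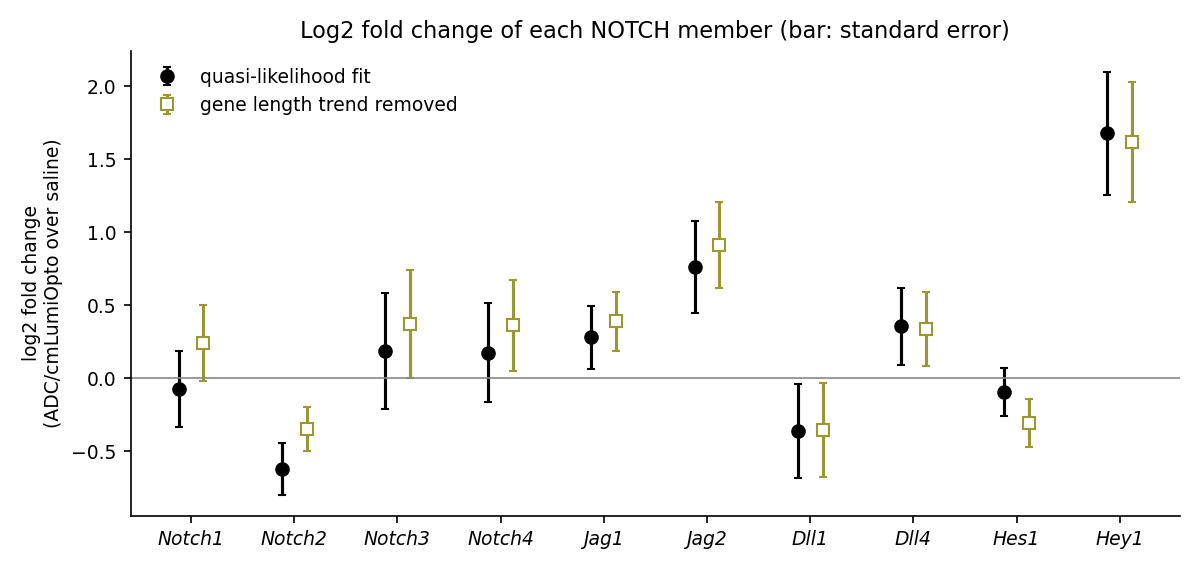
Log2 fold change of ADC/cmLumiOpto over saline for each member, from the quasi-likelihood fit (black circles) and after the trend on gene length was removed (open squares), with bars for 1 standard error. Hey1 is highest in both fits (1.68 and 1.62), Notch2 is lowest in the first (-0.62), and Notch1 changes sign.

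The rest of the pathway was described by 48 other genes in 6 lists by role, of which 39 passed the expression filter. At an unadjusted p under 0.05, 6 of these were lower and 5 were higher in the ADC/cmLumiOpto samples, which is close to the background shares given above, and 0 had an adjusted p under 0.05. The median log2 fold change was -0.16. The nuclear list (8 tested) had 4 genes lower and 0 higher, with a median of -0.53. Maml1, a Mastermind coactivator, was at 74.7 and 75.0 CPM against 32.02 and 52.0 CPM, a log2 fold change of -0.83 (SE 0.25, edgeR adjusted p = 0.139). Maml3 (-0.92), another coactivator, and Spen (-0.62), a corepressor, were also among them and were named after their values were seen. The genes that were lower thus include both coactivators and a corepressor. RBPJ itself (Rbpj) had a log2 fold change of -0.27. With the length trend removed, Maml1 (-0.74) was still under an unadjusted p of 0.05, Maml3 (-0.65) and Spen (-0.30) were not, and 2 rather than 6 genes of the 6 lists were lower, beside 9.82% of all genes.

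The list for receptor cleavage (10 tested) had 3 positive and 7 negative log2 fold changes, with a median of -0.15. At an unadjusted p under 0.05, 2 of its genes were higher and 0 lower, and both encode subunits of γ-secretase. Psenen had 44.5 and 40.5 CPM in the saline samples and 74.4 and 62.2 CPM with ADC/cmLumiOpto, giving a log2 fold change of 0.68 (SE 0.17, edgeR adjusted p = 0.123), which was 0.38 and still under an unadjusted p of 0.05 with the length trend removed. Aph1c had 4.81 and 2.36 CPM against 6.40 and 10.6 CPM, with a log2 fold change of 1.24 (SE 0.46, edgeR adjusted p = 0.184). Aph1c is a near copy of Aph1b (-0.22), so reads may be divided between the pair. The catalytic subunit gene Psen2 and the protease gene Adam10 were at 0.26 and -0.33.

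In the glycosylation list (5 tested), 1 gene was higher. This was Lfng, a Fringe enzyme that adds sugars to the receptor and so shifts it toward Delta-like ligands, with 38.5 and 30.1 CPM in the saline samples and 52.7 and 59.0 CPM in the treated samples. Its log2 fold change was 0.70 (SE 0.19, edgeR adjusted p = 0.125), and that of the related Mfng was 0.47 (SE 0.28). The list for ubiquitination and endocytosis (12 tested) had 1 gene higher and 2 lower. Neurl3, a neuralized-type ubiquitin ligase, was at 35.1 and 17.1 CPM against 68.7 and 54.3 CPM, a log2 fold change of 1.24 (SE 0.34, edgeR adjusted p = 0.126). Mib1, the ligase that drives ligand endocytosis, was at 101 and 116 CPM against 73.6 and 82.4 CPM, a log2 fold change of -0.48 (SE 0.17, edgeR adjusted p = 0.173), and Numbl, named after its value was seen, was at -0.86. With the length trend removed, Mib1 was at -0.19 and Numbl at -0.65, and neither was under an unadjusted p of 0.05.

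The list of other targets (3 of 8 tested) held 1 gene that was higher. This was Hes6, a HES protein that antagonizes HES1, with a log2 fold change of 0.46 (SE 0.19, edgeR adjusted p = 0.213), which was 0.22 and no longer under an unadjusted p of 0.05 with the length trend removed. Heyl, a relative of Hey1, was at 18.5 and 17.8 CPM in the saline samples and 16.8 and 14.6 CPM with ADC/cmLumiOpto, giving a log2 fold change of -0.21 (SE 0.22, edgeR adjusted p = 0.595). Hey1 and Heyl thus had log2 fold changes of opposite sign, and Nrarp, a feedback inhibitor of the pathway, was at -0.26. Hey2 had 8 and 2 counts with saline and 18 and 5 with ADC/cmLumiOpto and was not tested. Hes2, Hes3 and Hes5 had at most 1 count in any sample. Of the other ligands, 1 of 4 was tested, Dlk2, with a log2 fold change of 0.52 (SE 0.37, edgeR adjusted p = 0.432).

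**Figure D4:**
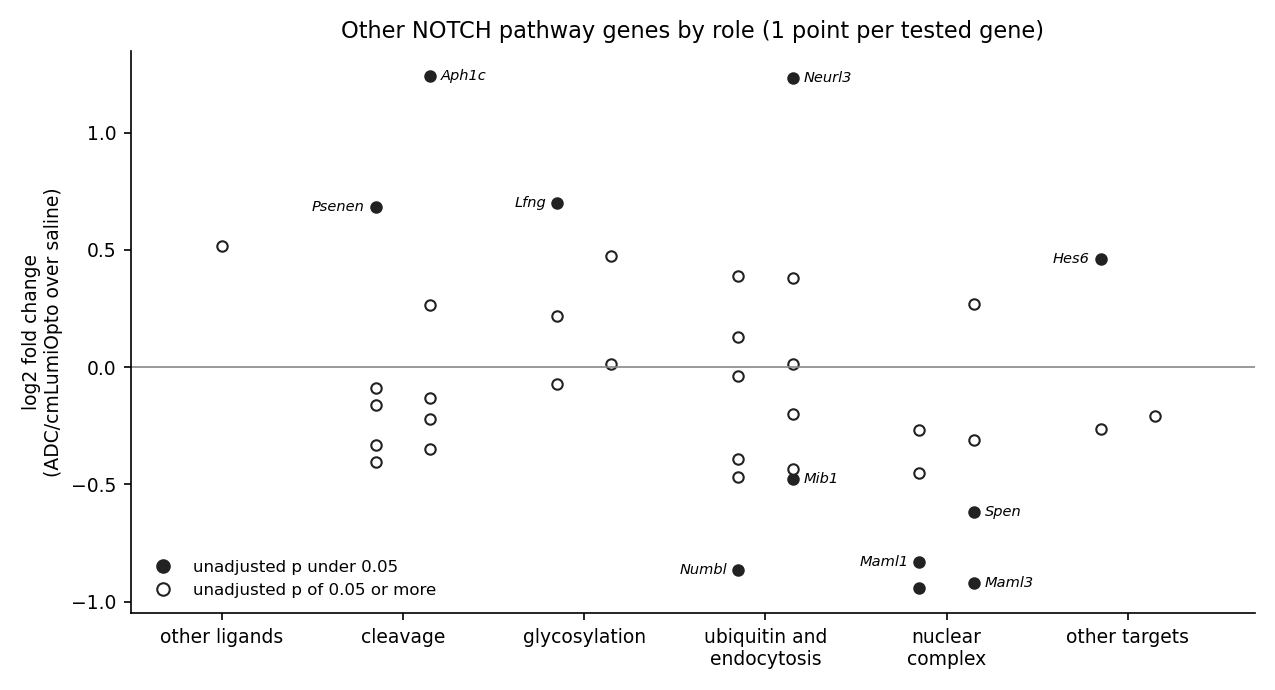
Log2 fold change of the 39 tested pathway genes other than the members, by role, with filled points for an unadjusted p under 0.05 and names beside those of them that the text describes. In the nuclear list 7 of 8 genes lie below 0, with Maml1 at -0.83. In the cleavage list 7 of 10 lie below 0, although its named genes lie above 0. In the glycosylation list 4 of 5 lie above 0.

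Markers of the cell types known to express the members also differed between the groups. In the endothelial list 6 of 12 genes were higher at an unadjusted p under 0.05 and 0 lower, with summed levels of 743 and 606 CPM in the saline samples and 782 and 1112 CPM in the treated samples. Pecam1 and Cdh5 had log2 fold changes of 0.52 and 0.017. Of the arterial list, 2 of 5 were higher and 1 was lower, with Gja5 and Gja4 at 1.16 and 1.67, and the summed levels overlapped (132 and 126 against 110 and 141 CPM). Most of each sum came from Efnb2, the gene that was lower (108 and 117 against 72.1 and 88.1 CPM). Gja5, Gja4 and Bmx were higher in both treated samples than in both saline samples, and Sox17 overlapped. The mural list of 10 had 1 gene higher and 2 lower, Pdgfrb and Rgs5 were at -0.58 and 1.16, and the sums were lower in the treated samples (287 and 325 against 215 and 199 CPM). For fibroblasts, 6 of 7 genes were lower and 1 was higher, with Col1a1 and Col1a2 at -2.02 and -1.40 and sums of 5075 and 3467 against 1733 and 1407 CPM.

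All 5 airway markers (Scgb1a1 2.89, Scgb3a2 3.79) and 6 of 7 alveolar markers (Sftpc 2.70, Sftpb 1.81) were higher at an unadjusted p under 0.05, and the alveolar sums were 1571 and 426 against 5465 and 4655 CPM. Of 7 tested leukocyte markers 4 were higher (Ptprc 1.25, Cd3d 2.03), with sums of 2627 and 1646 against 5202 and 6090 CPM. Most of each sum came from Lyz2 (1687 and 1128 against 4299 and 2447 CPM) and S100a8 (454 and 170 against 422 and 3089 CPM). The groups of S100a8, Itgam, Adgre1 and Csf1r overlapped. The tumor epithelial list had 1 of 5 tested genes lower (Epcam 0.18, Krt8 -0.25), and sums of 2543 and 2910 against 2470 and 2378 CPM. The part of lung epithelium in the sums of this list was not tested. In the proliferation list 5 of 6 were lower (Mki67 -0.93, Top2a -0.83), with sums of 1042 and 1047 against 657 and 593 CPM. Krt5 was at or near 0, with 5 counts in saline replicate 1 and 0 in the other samples.

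The levels of Hey1, Jag2, Dll4 and Notch2, the members whose groups did not overlap, were set against these sums within each sample. This description was chosen after the values of these members were seen. The fibroblast and proliferation sums were lower in the treated samples and were not used. The mural sums were used although they were also lower in both treated samples, which raises the ratios of those samples. The arterial sums were mostly Efnb2, which was lower in both treated samples. Per 1000 CPM of endothelial markers, Hey1 was at 7.07 and 3.89 CPM in the saline samples and 16.2 and 10.6 CPM in the treated samples, so it was higher in both treated samples also on this scale. Hey1 was also higher relative to arterial markers (39.9 and 18.8 against 115 and 83.4) and mural markers (18.3 and 7.27 against 58.9 and 59.4). The same held for tumor epithelial markers (2.07 and 0.811 against 5.12 and 4.96). Relative to alveolar markers it was lower in the treated samples (3.34 and 5.54 against 2.31 and 2.54), as it was relative to airway markers. Relative to leukocyte markers, mostly Lyz2 and S100a8 by sum, the groups overlapped (2.00 and 1.43 against 2.43 and 1.94). Jag2 was at 13.1 and 13.1 against 14.9 and 16.6 per 1000 CPM of endothelial markers. It was also higher relative to arterial (74.0 and 63.3 against 106 and 130), mural and tumor epithelial markers. Jag2 was lower relative to alveolar markers (6.21 and 18.7 against 2.13 and 3.96), and also relative to airway and leukocyte markers. Dll4 overlapped relative to endothelial markers, at 21.3 and 18.1 against 21.4 and 15.8. It was higher relative to arterial markers (120 and 87.4 against 153 and 124) and mural markers (55.0 and 33.9 against 77.9 and 88.6). Relative to tumor epithelial markers it was also higher (6.22 and 3.78 against 6.77 and 7.40), and relative to airway, alveolar and leukocyte markers lower. Notch2 was lower relative to endothelial markers (333 and 407 against 181 and 161) and relative to tumor epithelial markers (97.3 and 84.7 against 57.4 and 75.5). It was also lower relative to arterial (1878 and 1961 against 1295 and 1270), airway, alveolar and leukocyte markers. Relative to mural markers it overlapped (861 and 760 against 661 and 904). The higher or lower place of a member thus depended on the cell type it was set against, and the part of the cell type make-up in the values of Hey1, Jag2, Dll4 and Notch2 was not tested further.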

How the data were processed

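Bulk RNA sequencing was analyzed in 2 saline and 2 ADC/cmLumiOpto samples, grouped by their titles. The authors deposited raw counts, whole numbers of reads per gene without normalization, with gene positions and lengths in bases. According to the methods, reads were aligned with HISAT2 to GRCm38, whereas the submitters' processing notes name mm39, and all 10 members differed in position, but not in span, from GENCODE M21 on GRCm38. The program that counted reads is not given in the sources used here. Libraries may or may not be strand-specific, so reads of antisense genes cannot be told apart.

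Tests were run in edgeR 4.0.16 (R 4.3.3): filterByExpr (minimum count 10, minimum total 15), TMM, estimateDisp, glmQLFit and glmQLFTest, with Benjamini-Hochberg adjustment over 15320 genes and a threshold of 0.05. The standard error is the log2 fold change divided by the square root of F. Fold changes used a prior count of 0.125. The methods call the samples biological, but neither they nor the labels say that each is a separate mouse, and p-values measure the spread between these samples. Alternatives were DESeq2 1.42.0, other scalings, filters and tests, a block for the replicate number, a lowess trend on gene length (span 0.3) removed through offsets, and each sample left out. With 1 sample in a group, that sample is assumed to vary like the other group. The members and lists were chosen with earlier results of these data known. Genes named are all members, the 2 tested genes of smallest p in each pathway list, and the first 2 of each marker list. Other genes named were chosen after their values were seen, and some genes of these lists are counted but not reported by name here. In simulated counts for this comparison (15008 genes, 200 of them altered by a log2 value of 2), 93.5% of the altered genes and 8 others were called. The simulated spread depended only on a gene's mean level, and only genes with more than 200 counts in total were altered. In the measured counts the same test called 0 of 15320 genes. The simulated share thus checks that the procedure runs and does not give its power in these samples.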

Additional observations from a re-analysis of the deposited data

How the results depend on the processing

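Of 120 values of single members under the alternatives, 7 reversed direction, and none of these had an adjusted p under 0.05 in edgeR. Notch1 (-0.37 to 0.29 with single samples left out) was at 0.0077 with upper-quartile factors, 0.24 with the length trend removed, 0.29 without saline replicate 1 and 0.095 without ADC/cmLumiOpto replicate 1. Notch3 (up to 0.65) was at -0.51 without ADC/cmLumiOpto replicate 2, and Notch4 (up to 0.56) at -0.038 without saline replicate 1 and -0.36 without ADC/cmLumiOpto replicate 2. Members called lower numbered 1 (Notch2) in DESeq2 and without the expression filter, and members called higher numbered 1 (Hey1) in DESeq2, in the exact test, without the filter, in the block for the replicate number and without saline replicate 1, against 0 in the main test. With single samples left out, members called higher ranged from 0 to 1. At an unadjusted p under 0.05, members lower ranged from 0 to 1 and members higher from 1 to 2 with single samples left out. The lower count was 0 without either saline replicate and with the length trend removed. The higher count was 1 without saline replicate 1, saline replicate 2 or ADC/cmLumiOpto replicate 2. In the pathway lists, 2 genes were lower with the length trend removed, and with single samples left out 2 to 10 were lower (2 without saline replicate 2, 3 without ADC/cmLumiOpto replicate 1, 10 without ADC/cmLumiOpto replicate 2) and 2 to 5 higher (2 without saline replicate 2, 3 without ADC/cmLumiOpto replicate 2). The median of the members ranged from -0.20 without ADC/cmLumiOpto replicate 2 to 0.40 without ADC/cmLumiOpto replicate 1. The cause of these differences was not tested. Upper-quartile factors moved the median log2 fold change of all genes to 0.11.

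The replicate numbers were not taken to pair the samples, since nothing in the labels does so and the deviations of same-numbered samples had a correlation of 0.099. With the replicate block, 1 member was called higher (Hey1, adjusted p = 0.0435 in edgeR), beside 2.01% of all genes. At an unadjusted p under 0.05 in that fit, 1 rather than 2 members were higher, beside 12.6% of all genes. With raw counts instead of reads per kilobase the shares themselves were different, but the difference between the groups kept its direction for each of the 8 genes, for example -9.16 points for Notch2 and 4.25 points for Jag2. Depth limits the genes with few counts, such as Hey1 with 35 counts in saline replicate 2.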
